A study of Mus musculus with 10 samples.

Results

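The genes described here encode the receptors of type I and type II interferon and the JAK kinases and STAT factors through which these receptors signal. They are Ifnar1 and Ifnar2 (type I interferon receptor), Ifngr1 and Ifngr2 (type II interferon receptor), Jak1, Jak2 and Tyk2 (kinases), and Stat2 and Stat3 (transcription factors). The list was set by gene name, with earlier results of these data known, and its 9 genes were taken from a table of 55359. All 9 were among the 18742 genes that were tested, those whose mean reached 0.1 FPKM (fragments per length of gene, relative to all mapped fragments of a library). RNA was sequenced from lineage-negative bone marrow cells, prepared with a depletion kit that removes cells bearing markers of mature blood lineages. Of the 10 libraries, 5 were labelled Dhx9f/f (WT), in which the Dhx9 gene carries sites for Cre recombinase, and 5 were labelled Dhx9f/f;MX1 (cKO), which also carry an Mx1-Cre transgene and whose genotype label reads Dhx9 knock down. DHX9 is an RNA and DNA helicase. The sources used here give neither the age of the sequenced mice nor a pooling of animals.

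Interferons are secreted antiviral cytokines. Type I interferons bind a receptor of IFNAR1 and IFNAR2, which carry the kinases TYK2 and JAK1. Their main messenger is a complex that holds STAT2 and IRF9 and binds the interferon-stimulated response element (ISRE) of its targets. Interferon gamma, the type II interferon, binds a receptor of IFNGR1 and IFNGR2, which carry JAK1 and JAK2, and acts mainly through gamma-activated sites (GAS) of its targets. STAT3 serves mainly the interleukin-6 family and G-CSF, and JAK2 also serves the receptors for erythropoietin, interleukin-3 and GM-CSF. In bone marrow, type I interferon is known to drive quiescent stem cells into cycle. The pathway also bears on the design, because Mx1 is itself a type I interferon target and Mx1-Cre is switched on by giving mice poly(I:C), an RNA mimic that raises interferon. In the study's general methods, Mx1-Cre mice received repeated intraperitoneal doses and were examined about a week after the first. Whether the sequenced WT mice also received poly(I:C) was not stated, so poly(I:C) and genotype cannot be told apart if they did not.

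The targeted gene went against the labels. Dhx9 was at 130.82, 148.8, 131.25, 156.49 and 131.98 FPKM in the cKO-labelled libraries and at 68.96, 72.42, 72.18, 69.55 and 65.43 FPKM in WT. Libraries are therefore named by their labels, and every direction rests on those labels. At the level of whole genes, a transcript left after the deletion and an exchange of labels cannot be told apart. The female-specific transcript Xist was at 99.19 to 127.76 FPKM in WT 3, 4 and 5 and at no more than 0.09 FPKM in the other 7 libraries, so sex was not balanced between the groups. The libraries held an estimated 13792252 to 18758221 fragments. The progenitor markers Kit (18.73 to 54.36 FPKM) and Cd34 (20.1 to 28.57 FPKM in WT and 1.05 to 6.78 FPKM in the cKO-labelled libraries) were present in all 10 libraries, and so were transcripts of maturing cells. Summed markers of monocytes and dendritic cells were at 936 to 1643 FPKM in WT and 9.2 to 273.8 FPKM in the cKO-labelled libraries, and 12 of 13 fell. Summed neutrophil markers were at 2736 to 3719 FPKM against 147 to 2628 FPKM. Of these 12, 9 had a log2 fold change below 0 and 4 passed lower. The erythroid sum was at 1752 to 3113 FPKM against 5016 to 8391 FPKM, and 13 of 14 passed higher. Markers that passed lower were 7 of 7 for megakaryocytes, 9 of 10 for stem and progenitor cells, 6 of 7 for mast cells, basophils and eosinophils, 4 of 7 for B cells, 5 of 8 for T and NK cells and 6 of 8 for stroma and endothelium. In the last list Col1a2, a collagen chain, passed higher, at 0.4 to 2.39 FPKM in WT and 1.0 to 9.03 FPKM in the cKO-labelled libraries. Mcpt4, a mast cell protease named after its values were seen, also passed higher, with 0.24 to 1.26 FPKM in the cKO-labelled libraries, while every WT library lists it at 0. Among defining markers, Siglech (plasmacytoid dendritic cells) was at 0 in cKO 1, 2 and 4, Ly6g (neutrophils) in cKO 2, 4 and 5 and Dntt (early lymphoid cells) in cKO 1, 2 and 4. The part of these markers in the results that follow was not tested. In bulk RNA, fewer cells of a type and less RNA per cell cannot be told apart.

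Most transcripts of the pathway were lower in the cKO-labelled libraries. In limma, a linear model fitted across all genes, 8 of the 9 passed an adjusted p under 0.05 with lower values and 1, Jak1, passed with higher values. Over all genes tested, 28.3% passed lower and 16.7% passed higher. Among the 8035 genes whose mean reached 5 FPKM, where all 9 lay, 26.5% passed lower and 27.2% higher. The median log2 fold change was -0.84 for the 9 and -0.11 for all genes tested. The changes were moderate: only Ifnar1 and Ifngr2 also fell by 2-fold or more, against 16.8% of all genes, and none rose by 2-fold, against 4.6%. For 5 genes, Ifnar1, Ifnar2, Ifngr2, Tyk2 and Stat3, all 5 libraries labelled cKO lay below all 5 WT libraries, a separation that 21.6% of all genes showed. The number of 2-fold falls changed with single libraries. It was 0 without WT 1, 1 without cKO 4 and 4 without cKO 1, where Jak2 (-1.09) and Stat2 (-1.19) joined Ifnar1 (-1.04) and Ifngr2 (-1.08). It was also 0 under median-ratio scaling.

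**Figure D1:**
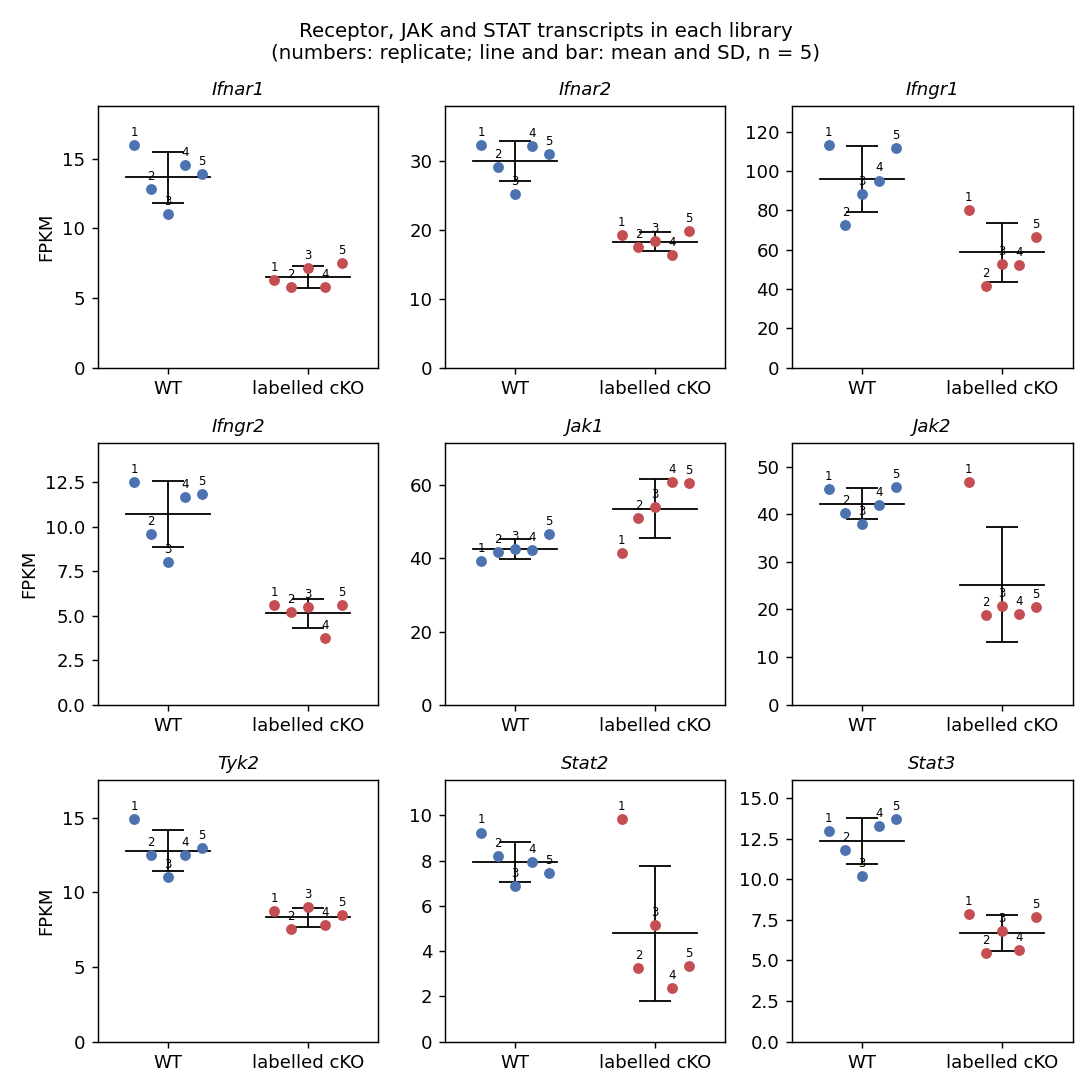
FPKM (y axis, from 0) of each of the 9 genes in each library; points are libraries with their replicate number, and lines and bars are the mean and SD of 5. Ifnar1, Ifnar2, Ifngr2, Tyk2 and Stat3 separate completely, Jak2 and Stat2 separate but for library cKO 1, and Jak1 is the gene with the higher mean in the cKO-labelled libraries.

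Ifnar1, whose product recruits TYK2, was at 15.95, 12.86, 11.06, 14.52 and 13.88 FPKM in WT 1 to 5. In cKO 1 to 5 it was at 6.3, 5.82, 7.16, 5.78 and 7.49 FPKM. The highest cKO-labelled library thus lay well below the lowest WT library. The mean fell from 13.7 ± 1.83 to 6.51 ± 0.780 FPKM (SD, n = 5 each), which is -1.05 on the log2 scale (standard error, SE, 0.115; adjusted p = 9.98e-05 by limma). This was the smallest adjusted p of the 9 genes.

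Ifnar2, the chain that recruits JAK1 and binds STAT2, was at 32.28, 29.2, 25.3, 32.22 and 31.08 FPKM in WT. It was at 19.3, 17.58, 18.42, 16.34 and 19.81 FPKM in the cKO-labelled libraries, again with no overlap. The fall was -0.71 on the log2 scale (SE 0.0835, adjusted p = 0.000131 by limma), smaller than that of its partner. Within a library, Ifnar1 FPKM were 0.437 to 0.494 of Ifnar2 FPKM in WT and 0.326 to 0.389 in those labelled cKO. The 2 ranges did not overlap. The log2 ratio differed by -0.35 (exact permutation test, two-sided, p = 0.00794, the smallest that 5 against 5 allow, and 0.0238 after adjustment over 6 pairs), so the 2 chains of the receptor fell by unequal amounts.

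The start regions of the 2 chains are shown because each holds a GAS match, and the part of these matches in the falls was not tested. RefSeq sequences of GRCm38.p6, a different build from that of the expression table, run from 250 bases before to 50 after the start of each gene on its own strand, and capitals mark the match to TTCNNNGAA. In Ifnar1 (chr16:91484965-91485264) the match TTCACGGAA spans the start, from position -5 to 4. In Ifnar2 (chr16:91372533-91372832) the match TTCCTGGAA lies from -214 to -206.
Ifnar1: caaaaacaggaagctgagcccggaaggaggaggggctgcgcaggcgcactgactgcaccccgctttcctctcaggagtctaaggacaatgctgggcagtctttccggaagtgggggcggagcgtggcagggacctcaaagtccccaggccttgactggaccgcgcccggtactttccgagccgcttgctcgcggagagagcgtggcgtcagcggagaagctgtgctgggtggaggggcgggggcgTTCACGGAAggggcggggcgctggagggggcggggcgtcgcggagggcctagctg
Ifnar2: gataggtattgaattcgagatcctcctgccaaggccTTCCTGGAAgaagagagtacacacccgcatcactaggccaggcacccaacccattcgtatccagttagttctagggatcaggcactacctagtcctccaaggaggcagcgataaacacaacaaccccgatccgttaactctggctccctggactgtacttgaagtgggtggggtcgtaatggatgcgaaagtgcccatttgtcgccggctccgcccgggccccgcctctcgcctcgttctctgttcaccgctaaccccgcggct
Searched on both strands, TTCNNNGAA was in 8.30% of 32851 promoters of this length, and the 7 other genes held none. Among the 9 genes the ISRE core, TTTC followed by any 2 bases and TTTC again, was found only in Stat2, described further on, and the PU.1 motif GAGGAAGT in none. A match of letters does not show that a factor binds.

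Ifngr1, the ligand-binding chain of the type II receptor, had the highest mean of the 9 transcripts in both groups. It was at 112.95, 72.63, 88.04, 95.14 and 111.49 FPKM in WT and at 80.35, 41.54, 52.85, 52.11 and 66.46 FPKM in the cKO-labelled libraries. The groups overlapped, because cKO 1 exceeded WT 2. The mean fell from 96.05 ± 16.9 to 58.7 ± 15.0 FPKM (SD, n = 5 each), or by -0.73 on the log2 scale (SE 0.177, adjusted p = 0.00644 by limma). The call was lost with sex as a covariate (adjusted p = 0.0643 by limma). It was also lost without the 3 Xist-expressing WT libraries (adjusted p = 0.119 by limma). The log2 fold change was -0.66 in each, because both estimates compare only WT 1 and WT 2 with the cKO-labelled libraries.

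Ifngr2, the signalling chain that recruits JAK2, was at 12.49, 9.61, 8.02, 11.65 and 11.83 FPKM in WT. It was at 5.62, 5.2, 5.51, 3.73 and 5.6 FPKM in the cKO-labelled libraries, and the groups did not overlap. The log2 fold change was -1.05 (SE 0.152, adjusted p = 0.000350 by limma), close to that of Ifnar1. The log2 ratio of Ifngr1 to Ifngr2 overlapped between the groups, at 2.91 to 3.44 in WT and 2.97 to 3.81 in the cKO-labelled libraries, and its difference of 0.32 was not called (exact permutation p = 0.119, adjusted p = 0.179).

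The 3 receptor genes other than Ifngr1 are neighbours. On chromosome 16 of GRCm39, Ifnar2 (91169618 to 91202723), Ifnar1 (91281942 to 91305789) and Ifngr2 (91343906 to 91362512) lie on the plus strand within 192.9 kb. Il10rb, which encodes the second chain of the interleukin-10 receptor and also serves type III interferon, lies between Ifnar2 and Ifnar1. It fell from 8.80 ± 1.36 to 5.06 ± 0.799 FPKM (SD, n = 5 each; log2 fold change -0.79, SE 0.143, adjusted p = 0.00124 by limma), with no overlap. All 4 receptor genes of this stretch were therefore lower. The remaining coding gene annotated there, Gm21970, was listed at 0 in every library. It overlaps Ifnar2 and Il10rb on the same strand, and how reads in the overlaps were counted is not given in the sources used here. Ifngr1 lies apart, on chromosome 10 (19467697 to 19485977, plus strand).

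The ligands were not detectable at a level that could be tested. Of 21 interferon genes in the table, 17 were listed at 0 in all 10 libraries, and the highest value of any was 0.14 FPKM, that of Ifng (interferon gamma) in WT 2. Ifnab, Ifnk and Ifnz were the other 3 with a value above 0, none over 0.12 FPKM. Interferon made by cells outside the lineage-negative fraction or at another time would not appear here.

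The 3 kinases did not move alike. Jak1 (chromosome 4, 101008838 to 101122487, minus strand), which serves both interferon receptors and the interleukin-6 family, was at 39.35, 41.65, 42.61, 42.38 and 46.78 FPKM in WT. It was at 41.46, 51.02, 54.03, 60.81 and 60.7 FPKM in the cKO-labelled libraries. Only cKO 1 lay within the WT range, and the other 4 lay above all WT libraries. The log2 fold change of 0.32 (SE 0.102) passed in limma (adjusted p = 0.0249) but not in 8 of 20 alternatives, among them those without WT 1, WT 2, cKO 4 or cKO 5, at adjusted p = 0.0519 to 0.0613. Its direction was the same in all 20, from 0.24 to 0.43.

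Tyk2 (chromosome 9, 21015363 to 21042689, minus strand), the kinase of the IFNAR1 chain, went the other way. It was at 14.89, 12.53, 11.05, 12.53 and 12.99 FPKM in WT and at 8.78, 7.56, 9.02, 7.79 and 8.48 FPKM in the cKO-labelled libraries, with no overlap. The log2 fold change was -0.61 (SE 0.0907, adjusted p = 0.000393 by limma), the smallest of the 8 falls. The 2 kinases of the type I receptor thus shifted against each other: Jak1 FPKM were 2.64 to 3.86 times Tyk2 FPKM in WT and 4.72 to 7.81 times in the cKO-labelled libraries. The log2 ratio differed by 0.93 with no overlap (exact permutation p = 0.00794, adjusted p = 0.0238).

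Jak2 (chromosome 19, 29228677 to 29290505, plus strand) turned on a single library. It was at 45.39, 40.25, 38.01, 41.9 and 45.75 FPKM in WT. In cKO 1 it was at 46.69 FPKM, above every WT library, and in cKO 2 to 5 it was at 18.8, 20.82, 19.08 and 20.43 FPKM, below every one. Over all 10 libraries the log2 fold change was -0.84 (SE 0.223, adjusted p = 0.010 by limma). Without cKO 1 it was -1.09 (adjusted p = 1.90e-05 by limma). The call was lost with sex as a covariate (adjusted p = 0.0587 by limma) and without the Xist-expressing libraries (adjusted p = 0.119 by limma). As for Ifngr1, both of the latter compare only WT 1 and WT 2 with the cKO-labelled libraries.

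Jak1 and Jak2, the kinases of the type II receptor, stood at near-equal levels in WT, where the ratio of their FPKM was 0.867 to 1.12. The ratio was 2.60 to 3.19 in cKO 2 to 5 and 0.888 in cKO 1. The difference in log2 ratio, 1.16, was not called after adjustment (exact permutation p = 0.0397, adjusted p = 0.0794), and it was 1.50 without cKO 1 (adjusted p = 0.0119). The Jak2 to Tyk2 ratio behaved likewise: the difference of -0.23 was not called (adjusted p = 0.438), and without cKO 1 it was -0.46 (adjusted p = 0.0119). Library cKO 1 also had the highest summed neutrophil markers of its label, 2628 FPKM against 147 to 1124 FPKM in the other 4, and their part in its Jak2 level was not tested. Its monocyte and dendritic cell sum, 70.5 FPKM, lay within the 9.2 to 273.8 FPKM of the other 4.

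**Figure D2:**
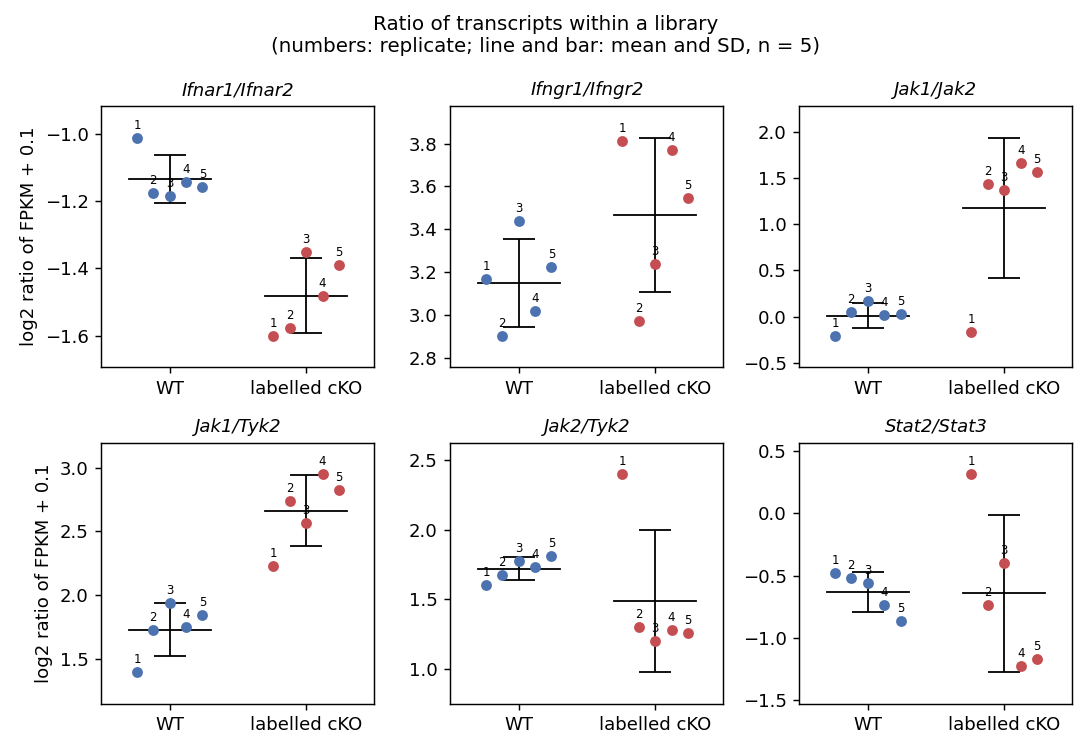
Log2 ratio (y axis) of the FPKM + 0.1 of paired genes within each library; points are libraries with their replicate number, and lines and bars are the mean and SD of 5. Ifnar1/Ifnar2 and Jak1/Tyk2 separate completely between the groups, whereas in Jak1/Jak2 and Jak2/Tyk2 cKO 1 stands apart from the other libraries with its label.

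Stat2 (chromosome 10, 128106352 to 128128735, plus strand), which gives the type I complex its activating domain, had the lowest mean of the 9 genes in both groups. It was at 9.24, 8.2, 6.89, 7.94 and 7.47 FPKM in WT and at 9.82, 3.25, 5.16, 2.37 and 3.35 FPKM in the cKO-labelled libraries. Here too cKO 1 was above every WT library and the other 4 below every one. The log2 fold change of -0.89 (SE 0.312) had an adjusted p of 0.0371 in limma and stayed under 0.05 in only 6 of 20 alternatives. Leaving out any 1 of 8 libraries ended the call (adjusted p = 0.0523 to 0.0876), while without cKO 1 the log2 fold change was -1.19 (adjusted p = 0.000892). Its lowest value, in cKO 4, stood for about 225 fragments by its annotated length, which is approximate for a gene of several transcripts. The fall of Stat2 is accordingly the least secure of the 8, although it kept its direction in all 20 alternatives.

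Stat2 is shown with its start region because it alone of the 9 held the ISRE core that the STAT2 complex recognises. In the RefSeq sequence of GRCm38.p6 (chr10:128270248-128270547, plus strand), capitals mark TTTCAGTTTC from position -222 to -213 and the RUNX motif TGTGGTTT from -68 to -61.
Stat2: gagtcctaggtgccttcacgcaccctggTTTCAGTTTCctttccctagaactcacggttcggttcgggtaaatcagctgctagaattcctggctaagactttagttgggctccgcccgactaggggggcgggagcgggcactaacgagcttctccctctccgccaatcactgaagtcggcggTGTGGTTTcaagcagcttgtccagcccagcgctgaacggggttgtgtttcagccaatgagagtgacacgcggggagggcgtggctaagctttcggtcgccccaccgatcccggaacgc
The ISRE core was in 3.44% of all promoters and TGTGGTTT in 1.78%, on either strand. Of the 15 type I interferon targets with a RefSeq promoter, 9 held the core, among them Isg15, Rsad2 and Trim30a, and none held the RUNX or PU.1 motif.

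Stat3 (chromosome 11, 100775924 to 100830450, minus strand), the factor of interleukin-6 and G-CSF signals, separated cleanly. It was at 12.95, 11.79, 10.18, 13.28 and 13.69 FPKM in WT and at 7.89, 5.47, 6.84, 5.67 and 7.66 FPKM in the cKO-labelled libraries. The log2 fold change was -0.88 (SE 0.127, adjusted p = 0.000335 by limma). The mean log2 ratio of Stat2 to Stat3 differed by -0.01 between the groups (exact permutation p = 0.992), with an SD of 0.163 in WT and 0.631 in the cKO-labelled libraries. Stat3 sits beside Stat5a and Stat5b within 158.9 kb of chromosome 11. Those neighbours, the main STATs of erythropoietin signalling, were at 17.3 and 33.9 FPKM in WT and 17.7 and 30.0 FPKM in the cKO-labelled libraries, and neither passed (adjusted p = 0.791 and 0.136 by limma). The ends of Stat3 and Stat5a overlap by 142 bp on opposite strands, and whether counting used strand was not given in the sources used here.

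**Figure D3:**
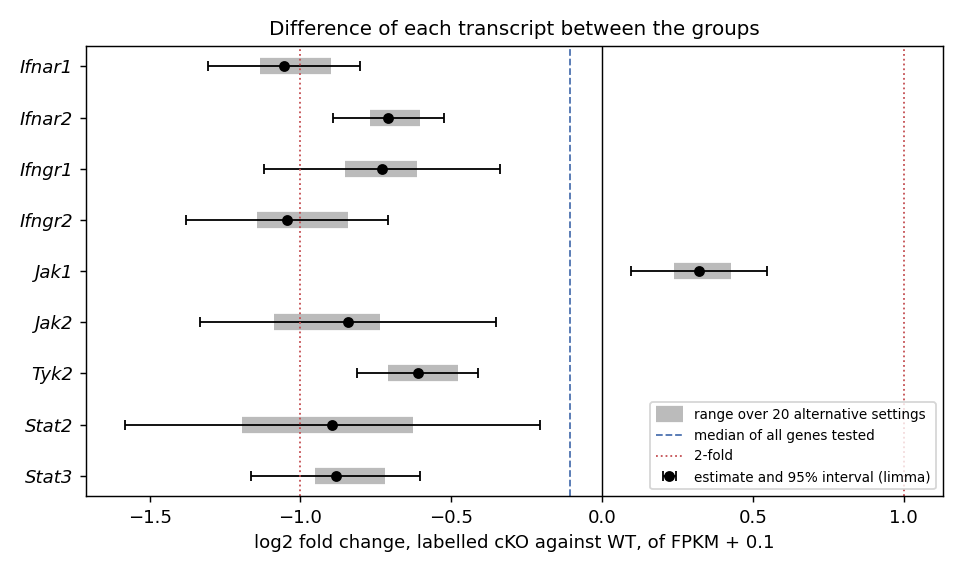
Log2 fold change of FPKM + 0.1 in the cKO-labelled libraries against WT (x axis) for each of the 9 genes; points and bars are limma estimates with 95% intervals, and grey bands span 20 alternative settings. All bands keep to one side of 0, and the intervals of Jak2 and Stat2 are the widest.

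The 9 levels were also put in order. In WT the means ran from Ifngr1 (96.05 FPKM) through Jak1 (42.6), Jak2 (42.3), Ifnar2 (30.0), Ifnar1 (13.7), Tyk2 (12.8), Stat3 (12.4) and Ifngr2 (10.7) to Stat2 (7.95 FPKM). Jak1 and Jak2 overlapped in range, as did each neighbouring pair from Ifnar1 down, so only Ifngr1, the Jak1 and Jak2 pair, and Ifnar2 stood apart. In the cKO-labelled libraries the order was Ifngr1 (58.7 FPKM), Jak1 (53.6), Jak2 (25.2), Ifnar2 (18.3), Tyk2 (8.33), Stat3 (6.71), Ifnar1 (6.51), Ifngr2 (5.13) and Stat2 (4.79 FPKM). Ifngr1 and Jak1 now overlapped, and by its mean Ifnar1 came after Tyk2, with which it no longer overlapped, and after Stat3, which was the higher of the pair in only 2 of 5 libraries. WT 1 was the highest WT library for 6 of the 9 genes and WT 3 the lowest for 7.

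The genes most like each of the 9 were found by the mean absolute difference of centred log2(FPKM + 0.1) over the 10 libraries among 12353 genes whose mean reached 1 FPKM. Ifnar2 came closest to Tmed10, a trafficking receptor of the secretory pathway, at 0.036. Jak1 came closest to Slirp, an RNA-binding protein of mitochondria, at 0.037, followed by Drap1 (0.054) and the respiratory complex subunit Ndufb5 (0.057). Tyk2 was nearest to the helicase-like factor Hltf (0.045), Stat3 to Gpd1l (0.047), Ifnar1 to Ppp1r21 (0.053), Ifngr2 to the splicing factor Mbnl2 (0.057) and Jak2 to the fucosidase Fuca2 (0.066). The gene nearest to Ifngr1, Dlg3, was at 0.111. The nearest to Stat2 were Slfn9 (0.073), the interferon-responsive Parp14 (0.145) and the nuclear body protein Sp100 (0.149). In all 3, as in Stat2, cKO 1 had the highest value of its label.

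Around the 9 genes, the rest of the JAK and STAT families was mixed. Of 7 genes (the other JAK and STAT genes of the list, and Irf9), 3 passed lower and none higher, with a median log2 fold change of -0.26. Stat4, the interleukin-12 factor, fell from 4.22 ± 0.652 to 0.930 ± 0.622 FPKM (SD, n = 5 each), and Jak3, the kinase of the common gamma chain, from 7.68 ± 1.05 to 2.45 ± 1.12 FPKM. Both separated completely. Irf9, the DNA-binding member of the complex, did not pass (log2 fold change -0.03, adjusted p = 0.904). It was at 24.95 FPKM in cKO 1 and 18.54 in cKO 3, at 11.1 to 14.43 FPKM in the other 3, and at 14.49 to 18.66 FPKM in WT. Irf9 was singled out after its values were seen.

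Most other cytokine receptors that use these kinases and STATs were lower too. Of 19 tested, 14 passed lower, 13 of them by 2-fold or more, and 1 higher, with a median of -1.72. Csf3r, the G-CSF receptor that signals through STAT3, was at 18.91 to 26.01 FPKM in WT and at 4.32, 0.32, 1.97, 0.39 and 2.77 FPKM in the cKO-labelled libraries (log2 fold change -4.01, adjusted p = 0.000408 by limma). Il6st, the shared chain of the interleukin-6 family, fell from 15.5 ± 3.22 to 1.76 ± 1.64 FPKM and Il6ra, its interleukin-6 partner, from 16.1 ± 3.67 to 2.13 ± 1.33 FPKM (SD, n = 5 each). The 1 that rose was Epor, the erythropoietin receptor, from 38.9 ± 7.27 to 68.2 ± 7.94 FPKM (adjusted p = 0.000456 by limma). Of the class II family, to which the interferon receptors belong, 5 other chains were tested, and 2 passed lower and 1 higher. Il10ra fell from 10.6 ± 2.30 to 0.864 ± 0.658 FPKM, and Il20rb, named after its values were seen, rose from 0.330 ± 0.0851 to 1.39 ± 0.490 FPKM. The summed monocyte, neutrophil and erythroid markers given above also differed between the groups, although only 4 of 12 neutrophil markers passed lower. The part of these markers was not tested.

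Feedback inhibitors and phosphatases moved in both directions: of 19, 9 passed lower and 6 passed higher. Cish, a STAT5-induced inhibitor, rose most, from 0.46 to 0.91 FPKM in WT to 3.86, 18.48, 11.46, 12.42 and 7.7 FPKM in the cKO-labelled libraries (log2 fold change 3.71, adjusted p = 6.85e-05 by limma). Ptprc, which encodes the leukocyte phosphatase CD45, fell from 13.5 ± 2.98 to 4.11 ± 1.20 FPKM, and Socs5 from 2.91 ± 0.640 to 0.852 ± 0.272 FPKM (SD, n = 5 each). Usp18, which shuts off the IFNAR2 chain and is itself induced by interferon, was at 3.1 to 4.93 FPKM in WT and at 8.78, 1.19, 8.26, 0.91 and 1.67 FPKM in the cKO-labelled libraries. It did not pass (adjusted p = 0.642) and was named after its values were seen. The median of the list, -0.35, was -0.0072 without cKO 4. Of the STAT2 coactivators, Ep300 (p300) passed lower at a log2 fold change of -0.37 (adjusted p = 0.0131 by limma), and Crebbp (CBP) was at -0.12 and did not pass (adjusted p = 0.486).

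**Figure D4:**
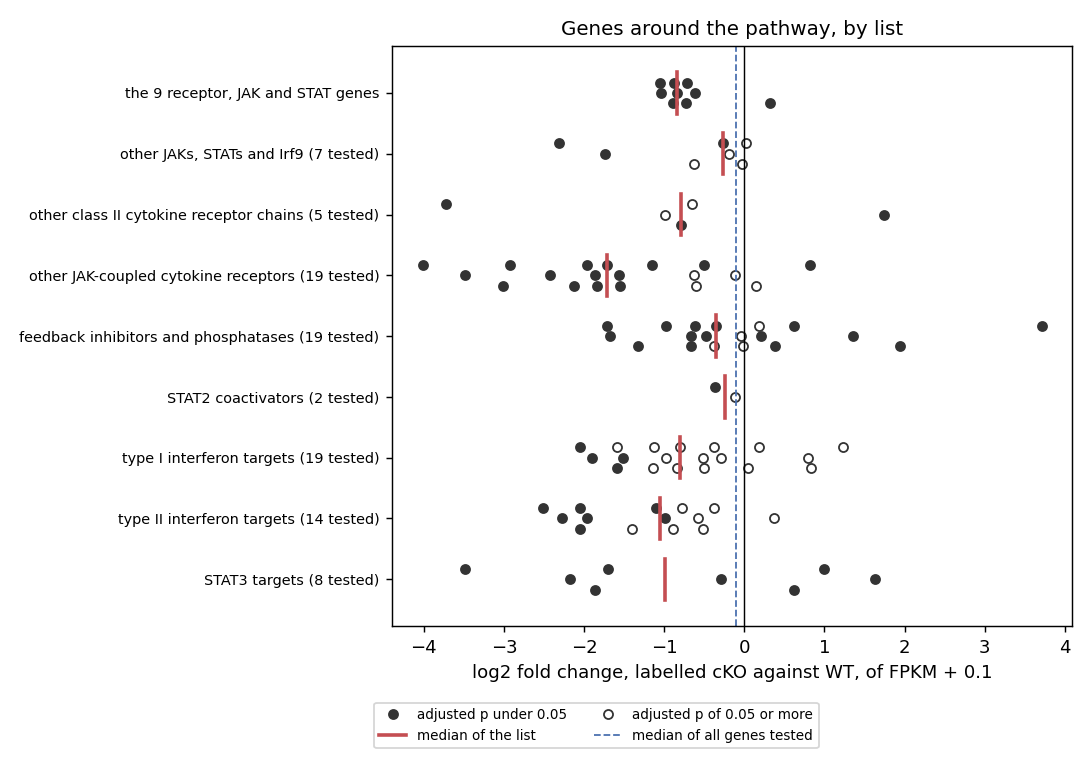
Log2 fold change of FPKM + 0.1 in the cKO-labelled libraries against WT (x axis) for every tested gene of each list; filled points have an adjusted p under 0.05 and red marks are list medians. The median of the receptors that share JAK kinases, -1.72, lies below that of the 9 genes, -0.84.

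The type I interferon targets divided the cKO-labelled libraries among themselves. Of 19 targets tested, 4 passed lower, each by 2-fold or more, and none higher, and the median log2 fold change was -0.80. Library by library, 13 of the 19 were above all 5 WT libraries in cKO 1 and 13 in cKO 3, against 0 in cKO 2, 1 in cKO 4 and 0 in cKO 5. Conversely, 15, 17 and 18 of the 19 were below all WT libraries in cKO 2, 4 and 5, against 4 in cKO 1 and 3 in cKO 3. Over all genes tested, 28.5%, 27.2%, 29.4%, 28.7% and 25.3% lay above all WT libraries in cKO 1, 2, 3, 4 and 5, and 34.8% (cKO 3) to 41.0% (cKO 4) lay below them. The mean log2(FPKM + 0.1) over the list was 2.67 in cKO 1 and 2.74 in cKO 3, 0.36, -0.12 and 0.34 in cKO 2, 4 and 5, and 1.41 to 2.22 in WT. The SD was thus 1.39 among the cKO-labelled libraries and 0.320 among WT. The median log2 fold change of the list was -1.28 without cKO 1 and -0.38 without cKO 4.

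Single targets showed the same order. Isg15, a ubiquitin-like modifier, was at 36.18 and 69.13 FPKM in cKO 1 and 3, at 6.04, 3.72 and 3.22 FPKM in cKO 2, 4 and 5, and at 2.48 to 13.07 FPKM in WT. Rsad2, which encodes viperin, was at 30.82 and 17.72 FPKM against 3.25, 1.59 and 1.71 FPKM, with 1.79 to 3.28 FPKM in WT. These 2 were named after their values were seen. The 3 with the largest changes by the naming rule were instead low in most of the cKO-labelled libraries. Trim30a, an antiviral TRIM protein, was at 19.46 to 25.44 FPKM in WT and at 12.04, 3.34, 14.57, 2.41 and 5.75 FPKM in the cKO-labelled libraries (log2 fold change -1.90, adjusted p = 0.00447 by limma). Zbp1, a nucleic acid sensor, was at 0.59, 0.1, 2.47, 0.04 and 0.25 FPKM against 1.09 to 2.72 FPKM in WT (log2 fold change -2.05, adjusted p = 0.0309 by limma). Mx1, whose promoter drives the Cre of this model, was at 2.88 to 3.62 FPKM in WT and at 0.53, 0.85, 2.26, 0.74 and 1.94 FPKM in the cKO-labelled libraries (log2 fold change -1.51, adjusted p = 0.00448 by limma).

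The receptors, kinases and STATs did not divide in this way. Of the 9 genes, 8 were below all WT libraries in cKO 2, in cKO 3, in cKO 4 and in cKO 5 alike, and 5 in cKO 1. Of all genes tested, 40.0%, 34.8%, 41.0%, 36.6% and 38.2% lay below all WT libraries in cKO 2, 3, 4, 5 and 1. In cKO 3, where 13 type I targets exceeded all WT libraries, only Jak1 of the 9 did so. Stat2 came nearest to the order of the targets, with cKO 1 highest and cKO 3 next, yet at 5.16 FPKM cKO 3 stayed below the lowest WT library, at 6.89 FPKM. Ifnar1 and Ifnar2 spanned only 5.78 to 7.49 and 16.34 to 19.81 FPKM over the cKO-labelled libraries, in which Isg15 ran from 3.22 to 69.13 FPKM. Neither a difference in poly(I:C) dosing between these mice nor one in the time of sampling is recorded in the sources used here.

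**Figure D5:**
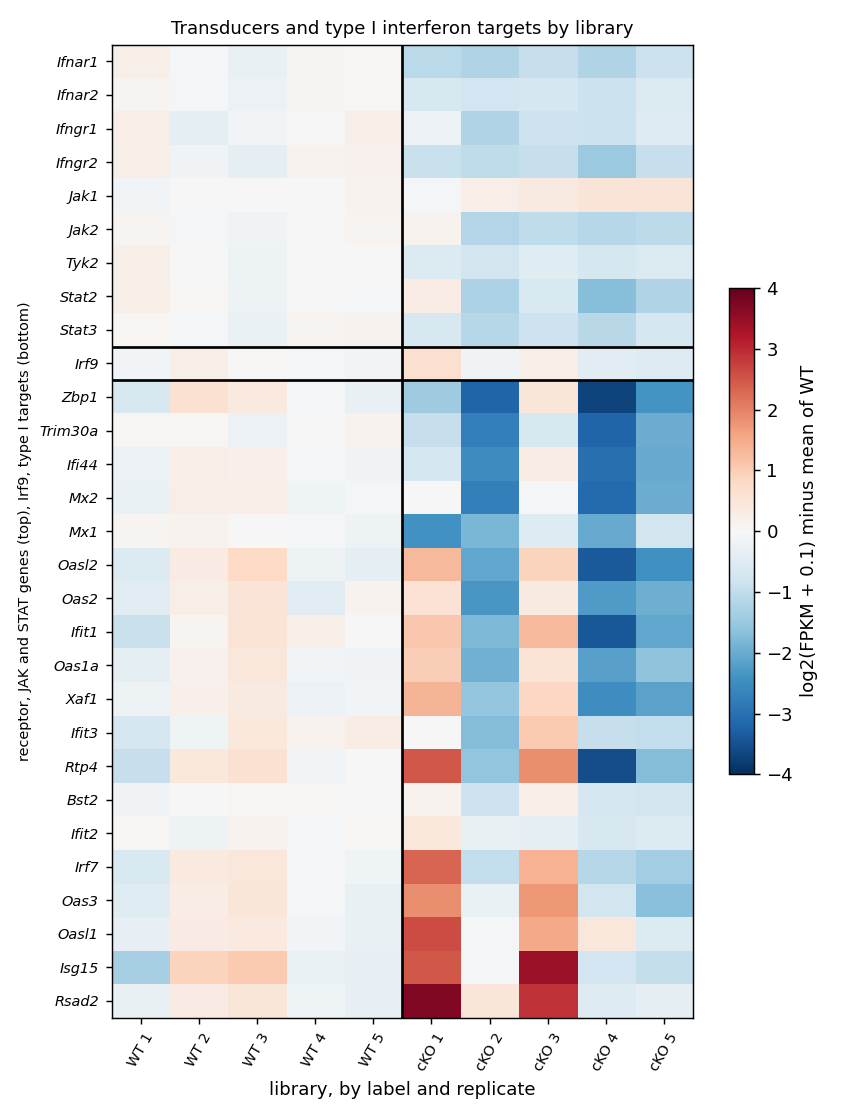
Log2(FPKM + 0.1) of each gene in each library minus the WT mean of that gene (colour), for the 9 genes (top), Irf9 (middle) and 19 type I interferon targets (bottom), in libraries of each label (x axis). Targets such as Isg15 and Rsad2 are above WT in cKO 1 and 3 and near or below it in cKO 2, 4 and 5, whereas Ifnar1, Ifnar2, Tyk2 and Stat3 are below WT in all 5.

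Targets of type II interferon were lower or did not pass. Of 14 tested, 7 passed lower and none higher, with a median of -1.05. Gbp3, a guanylate-binding protein, fell from 13.1 ± 1.45 to 2.79 ± 1.67 FPKM and Gbp2 from 5.72 ± 1.02 to 1.49 ± 1.41 FPKM (SD, n = 5 each), each with no overlap. Irf1, the interferon gamma-induced transcription factor, was at 9 to 12.39 FPKM in WT and at 3.85, 3.83, 2.93, 0.64 and 2.53 FPKM in the cKO-labelled libraries (log2 fold change -2.05, adjusted p = 0.00181 by limma). Above all WT libraries were 3 of the 14 in cKO 1, 1 in cKO 2 and 2 in cKO 3. Below them were 9, 10, 5, 12 and 13 of the 14 in cKO 1 to 5, against 38.2%, 40.0%, 34.8%, 41.0% and 36.6% of all genes tested. The mean log2(FPKM + 0.1) over the list was 1.40, 1.05, 2.06, 0.04 and 0.96 in cKO 1 to 5 and 2.05 to 2.54 in WT. Its SD was 0.734 among the cKO-labelled libraries and 0.189 among WT. Of 8 STAT3 targets, which include Il6st and Socs3 of the lists above, 5 passed lower and 3 higher. Bcl6 fell from 1.74 ± 0.344 to 0.362 ± 0.256 FPKM and Bcl3 from 2.26 ± 0.412 to 0.614 ± 0.381 FPKM (SD, n = 5 each), both transcriptional regulators. The 3 higher ones were Pim1, Junb and Socs3, which other STATs also induce, led by Pim1, at 17.62 to 22.58 FPKM in WT and 45.4 to 89.43 FPKM in the cKO-labelled libraries (log2 fold change 1.63, adjusted p = 6.93e-05 by limma). Many of these targets are expressed in monocytes, whose markers fell, and the part of those markers was not tested.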

How the data were processed

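RNA of lineage-negative bone marrow cells was sequenced with paired ends in 10 libraries (5 per label). Per the labels, the submitters' processing notes name cutadapt 1.9.1, HISAT2 2.0.1 and HTSeq 0.6.1 with GRCm39. The annotation and gene lengths behind the values are not given in the sources used here. The authors deposited a table of FPKM with 2 decimals, so no count model was used.

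The 18742 genes whose mean reached 0.1 FPKM entered a two-sided test in limma 3.58.1 under R 4.3.3 (lmFit, then eBayes with trend) on log2(FPKM + 0.1), and p-values were adjusted over all of them by Benjamini-Hochberg. This scale understates changes of low genes. "Fell", "rose" and "passed" refer to adjusted p-values below 0.05, and changes of 2-fold or more were counted besides. Symbols and GRCm39 coordinates came from the annotation given. Ratios of 6 gene pairs within a library were compared by exact permutation over 252 assignments. Depth was estimated from the steps of low FPKM values, of which 95.3% to 96.1% came out whole within 0.2 of a fragment. Fits were tried on simulated data with the WT spread in both groups, so a wider spread among the cKO-labelled libraries was not covered.

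The 9 genes and all lists were chosen with earlier results of these data known. Named genes were the 9, Dhx9, up to 3 genes per list with the largest change among those whose mean reached 1 FPKM, the 2 most abundant markers per list and the 3 nearest genes of each of the 9, other names being given as chosen later. 1 named gene is not reported here. Alternatives were pseudocounts of 0.01 and 1, filters, scalings, no trend, a sex covariate, Xist-low libraries alone, the replicate number as a block, and each library left out. P-values measure the spread between libraries, taken as separate mice.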

Additional observations from a re-analysis of the deposited data

Results flagged for a closer look

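In groups of 5 libraries, 46 sets of values were screened for a library far from the other 4, and 7 were found where chance gives about 2.3. Library cKO 1 accounted for 4 of the 7. Its Jak2 level was 46.69 FPKM against 18.8 to 20.82 FPKM in the other libraries labelled cKO. Its log2 ratio of Jak1 to Jak2 was -0.17 against 1.37 to 1.67, and that of Jak2 to Tyk2 was 2.40 against 1.20 to 1.30, so both share the Jak2 value. The mean log2(FPKM + 0.1) of the STAT2 coactivators Ep300 and Crebbp was 3.04 in cKO 1 against 2.70 to 2.72.

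Ifngr2 in cKO 4 was at 3.73 FPKM against 5.2 to 5.62 FPKM in the other 4. Among WT libraries, the log2 ratio of Ifnar1 to Ifnar2 was -1.01 in WT 1 against -1.19 to -1.14, and the mean log2(FPKM + 0.1) of the other class II receptor chains was 0.17 in WT 2 against 0.61 to 0.73.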

How the results depend on the processing

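Over 20 alternatives, each of the 9 genes kept its direction, and Ifnar1, Ifnar2, Ifngr2, Tyk2 and Stat3 passed in all 20. Ifngr1 and Jak2 passed in 18, Jak1 in 12 and Stat2 in 6. In all, 459 of 530 recomputed values were labelled the same as in the main setting. For fold changes and ratios this meant the same direction and side of the threshold. For counts it meant a limited fold difference, and for list medians a shift smaller than the SD between libraries. Where no cause follows from the construction of an alternative, the cause was not tested. With only the 7 Xist-low libraries, log2 fold changes that no longer passed were Ifngr1 -0.66, Jak1 0.39, Jak2 -0.86 and Stat2 -1.03. The same 4 values came under the sex covariate, since both settings compare only WT 1 and WT 2 with the cKO-labelled libraries. Without a trend Jak1 (0.32) and Stat2 (-0.89) did not pass, with quantile normalization Jak1 (0.24) and Stat2 (-0.63), with median-ratio scaling Stat2 (-0.79), and with no filter Stat2 (-0.89). Quantile normalization moved the median of all genes to 0.10.

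Over all genes, 3153 fell and 862 rose by 2-fold or more. On adjusted p alone these were 5300 and 3138, with a filter at 1 FPKM 1827 and 462, and with a pseudocount of 1, 1486 and 356. Quantile normalization gave 1581 higher and the Xist-low libraries 541 higher. Of the 9 genes, 8 were lower and 1 higher on adjusted p alone, and 0 were 2-fold lower with median-ratio scaling, a pseudocount of 1 or quantile normalization. Pathway lists held 32 genes 2-fold lower and 5 higher, which became 21 lower in Xist-low libraries, and 10 (adjusted p alone), 2 (filter at 1 FPKM) and 2 (pseudocount of 1) higher.

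With a pseudocount of 1 list medians were -0.22 for class II chains, -0.90 for JAK-coupled receptors, -0.19 for feedback inhibitors and -0.65 for STAT3 targets. With quantile normalization JAK-coupled receptors were at -1.21 and feedback inhibitors at 0.033, with a filter at 1 FPKM class II chains at -2.26 and STAT3 targets at -1.70, and with a pseudocount of 0.01 type II targets at -1.78.

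With the replicate number as a block, the ratios of Ifnar1 to Ifnar2 (-0.35) and of Jak1 to Tyk2 (0.93) had an adjusted p of 0.125, and in Xist-low libraries (-0.39 and 1.10) of 0.143. The block over 5 pairs cannot go under 0.05. With WT 1 and WT 2 as the only WT libraries, the Xist-low set allows few assignments of the labels, which limits how small its p can be. The block kept 2 genes 2-fold lower and changed no other call of the 9. Same-numbered libraries of the 2 labels did not all deviate together (correlations -0.08 to 0.19), so numbers were not treated as pairs, and of the 5 WT libraries 3 were most like their own number among those labelled cKO. The ratio of Stat2 to Stat3 turned to 0.049 with a pseudocount of 1.

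Leaving out 1 library at a time gave 0 to 4 of the 9 genes 2-fold lower. Log2 fold changes ranged from 0.27 to 0.41 for Jak1 and from -1.19 to -0.69 for Stat2, and the median of the feedback inhibitors from -0.41 to -0.0072. Log2 ratios ranged from 1.04 to 1.50 for Jak1 to Jak2, from -0.46 to -0.16 for Jak2 to Tyk2 and from -0.25 to 0.13 for Stat2 to Stat3. Values near 0.1 FPKM, such as those of the interferon genes, rest on few fragments at this depth.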
